A study of Mus musculus with 18 samples.

Results

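The 10 chemokine genes Ccl2, Ccl5, Ccl7, Cxcl1, Cxcl2, Cxcl5, Cxcl10, Cxcl12, Cxcl16 and Cx3cl1 were followed in differentiated cells of the mouse line C2C12, whose myoblasts fuse into myotubes when serum is lowered. They were chosen by name with earlier results of these data known, so their counts beside those of all genes are a description. They were found by symbol among the 55414 genes of the count table. Confluent myoblasts were transfected with non-targeting siRNA (siNtc), with a pool of siRNAs against Erk3 (siErk3), the kinase encoded by Mapk6, or with a pool against Mk5 (siMk5), its partner kinase encoded by Mapkapk5. After 6 days of differentiation the cells were kept for 16 h in medium free of serum, with BSA alone or with 0.5 mM palmitic acid (PA) carried by BSA, which gave 6 groups of 3 libraries. Every group, controls included, was therefore transfected and deprived of serum. All 18 libraries come from one cell line, in a dish that held no blood or immune cells, and separate culture of the libraries within a group is not stated, so p-values measure the spread between these libraries, which may be technical. The study used these data to ask how silencing of either kinase alters gene expression in myotubes under a fatty acid load.

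Chemokines are small secreted proteins that draw leukocytes along a gradient by way of receptors with a G protein partner. Ccl2 and Ccl7 attract monocytes through Ccr2, and Ccl5 attracts T cells and monocytes. Cxcl1, Cxcl2 and Cxcl5 attract neutrophils through Cxcr2, whereas Cxcl10, a classical interferon target, attracts activated T cells through Cxcr3. Cxcl12 is made constitutively in many tissues, signals through Cxcr4 and is scavenged by Ackr3. Cxcl16 and Cx3cl1 are made as membrane-bound proteins that can be shed, and their receptors are Cxcr6 and Cx3cr1. In muscle, chemokines released after injury bring in the monocytes that help to clear debris, and saturated fatty acids are known to raise inflammatory genes in cultured muscle cells, in which NF-kappaB is a central transcription factor.

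The genes lie in a few places of the genome (GRCm39). Ccl2 at chr11:81926397-81928279 and Ccl7 at chr11:81936538-81938351 are neighbors in the CC cluster of chromosome 11, with Ccl5 at chr11:83416604-83421344 farther along. The CXC genes Cxcl5 (chr5:90907219-90909483), Cxcl1 (chr5:91039100-91040974) and Cxcl2 (chr5:91051730-91053797) form a cluster on chromosome 5, which also holds Cxcl10 (chr5:92494497-92496748). Cxcl12 is at chr6:117145496-117158328, Cxcl16 at chr11:70344809-70350810 and Cx3cl1 at chr8:95498637-95509055. None of the 10 genes shares exonic bases with another gene on its own strand, which is the strand that was counted.

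Because the genes responded to PA very differently, the 250 bases before the annotated start of each main transcript were read from GRCm39 with GENCODE M39 and searched on both strands for 4 short motifs. The NF-kappaB consensus was matched before the start of Ccl5, Cxcl1, Cxcl2, Cxcl5 and Cxcl10, which is 5 of 10 genes, against 8.52% of the 14995 protein-coding genes searched. The interferon response element core, TTTC repeated after a gap of 2 bases, was matched, on the opposite strand, before Cxcl10 and before none of the other 9 genes, against 3.09% of all genes searched. The AP-1 motif TGANTCA was found before Cxcl10 and Ccl7 (5.05% of all genes), and the TATA box TATAAA before Ccl5 and Ccl7 (8.14% of all genes). In Cxcl1, Cxcl2 and Cxcl5, which are related genes, and at one of the places in Cxcl10, NF-kappaB matches overlap by all but 1 base and were taken as 1 place each. Shown are the genes with the largest responses to PA, a weak responder that shares its NF-kappaB letters with Cxcl1 (Cxcl5), and 2 genes without a match that rose and fell (Ccl2 and Cxcl12), and capitals mark the motif matches. They are printed 5′ to 3′ on the strand of the gene, for Cxcl10 (chr5:92496749-92496998, minus strand), Ccl5 (chr11:83421346-83421595, minus), Cxcl1 (chr5:91038844-91039093, plus), Cxcl5 (chr5:90906987-90907185, plus, ending 52 bases before the main start because another transcript begins there), Ccl2 (chr11:81926147-81926396, plus) and Cxcl12 (chr6:117145246-117145495, plus).
Cxcl10: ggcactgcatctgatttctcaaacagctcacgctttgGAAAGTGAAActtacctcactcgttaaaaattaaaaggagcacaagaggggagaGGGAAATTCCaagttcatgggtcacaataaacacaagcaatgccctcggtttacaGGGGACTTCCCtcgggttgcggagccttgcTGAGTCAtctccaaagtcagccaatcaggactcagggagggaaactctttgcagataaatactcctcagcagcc
Ccl5: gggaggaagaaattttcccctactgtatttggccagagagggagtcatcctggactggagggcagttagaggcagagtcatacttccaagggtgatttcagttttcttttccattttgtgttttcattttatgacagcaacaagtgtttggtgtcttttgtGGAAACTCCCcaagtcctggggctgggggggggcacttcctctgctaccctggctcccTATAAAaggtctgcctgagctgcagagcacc
Cxcl1: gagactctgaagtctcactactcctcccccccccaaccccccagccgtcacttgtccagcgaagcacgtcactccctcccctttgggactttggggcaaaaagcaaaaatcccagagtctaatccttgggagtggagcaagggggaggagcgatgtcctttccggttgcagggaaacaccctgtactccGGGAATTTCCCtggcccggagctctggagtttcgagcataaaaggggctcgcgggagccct
Cxcl5: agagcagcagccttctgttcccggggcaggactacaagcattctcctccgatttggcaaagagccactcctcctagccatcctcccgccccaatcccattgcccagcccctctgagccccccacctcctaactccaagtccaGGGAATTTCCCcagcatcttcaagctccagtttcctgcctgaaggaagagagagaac
Ccl2: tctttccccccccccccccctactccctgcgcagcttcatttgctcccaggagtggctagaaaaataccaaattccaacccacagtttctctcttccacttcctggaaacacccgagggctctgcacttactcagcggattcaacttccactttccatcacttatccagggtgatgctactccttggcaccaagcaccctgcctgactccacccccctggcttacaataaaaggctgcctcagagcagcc
Cxcl12: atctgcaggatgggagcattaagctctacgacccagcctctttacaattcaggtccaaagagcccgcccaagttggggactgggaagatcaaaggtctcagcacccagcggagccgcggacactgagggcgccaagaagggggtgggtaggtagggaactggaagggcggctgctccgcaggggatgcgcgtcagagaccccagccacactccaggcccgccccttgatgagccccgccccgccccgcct

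**Figure D1:**
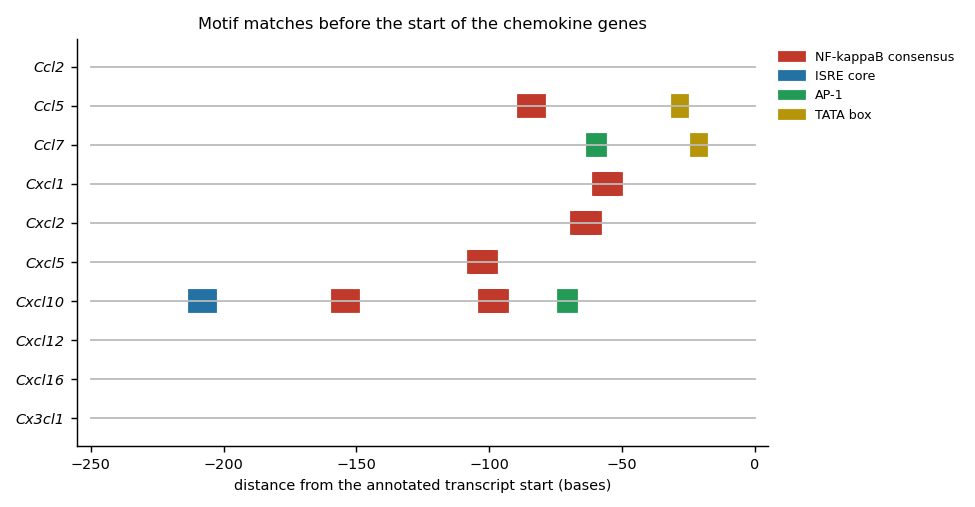
Position of motif matches in the 250 bases before the annotated start of each of the 10 chemokine genes, with the distance from the start in bases on the horizontal axis and one line per gene. Colored boxes are matches of the 4 motifs, and Ccl2, Cxcl12, Cxcl16 and Cx3cl1 carry none of them in this window. All 250 bases of the Cxcl16 window lie in annotated untranslated regions of transcripts, so its lack of matches is not like that of the other genes.

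The map of motif matches places those of the NF-kappaB consensus between 51 and 159 bases before the start, and that of the interferon element before Cxcl10 at 213 to 204 bases. These are matches of letters and were not tested for binding, and the motifs were chosen with earlier results of these data known.

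In BSA, myotubes with siNtc expressed Cx3cl1 and Cxcl12 well above the other 8 genes. Compared per kilobase of exon, as TMM-normalized CPM (read pairs of a gene scaled to library size) per kilobase, Cx3cl1 stood at 18.1 ± 0.864 (SD, n = 3) and Cxcl12 at 12.5 ± 0.634, followed by Ccl7 at 5.96 ± 0.592 and Ccl2 at 3.43 ± 0.802. Cxcl5 (1.31 ± 0.186), Cxcl16 (0.771 ± 0.0778) and Cxcl1 (0.679 ± 0.218) were lower, and Cxcl10 (0.245 ± 0.101) and Ccl5 (0.236 ± 0.101) were lowest of the genes detected. Cxcl16 overlapped with Cxcl1, and Cxcl10 with Ccl5, while the other neighbors in this order were separated in all 3 libraries. Cxcl2 gave 1 read pair in the 18 libraries together and was below the minimum of 10 counts, so 9 of the 10 genes entered the tests.

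With PA the order was another one. In siNtc, Cxcl10 (38 ± 3.36 CPM per kilobase), Ccl2 (35 ± 4.34) and Ccl7 (33 ± 4.11) led and overlapped as neighbors, then came Cx3cl1 (24 ± 0.13) and Ccl5 (22.1 ± 1.75), and Cxcl1 (7.49 ± 0.96), Cxcl12 (4.79 ± 0.895), Cxcl5 (2.65 ± 0.399) and Cxcl16 (0.858 ± 0.0202) followed without overlap. The 10 genes summed to 43.2 ± 1.71 CPM per kilobase in siNtc BSA and 168 ± 10.3 in siNtc PA (SD, n = 3). In siErk3 PA the order began with Cxcl10 (46.1 ± 3.85), followed by Ccl2, Ccl5 and Ccl7, which overlapped as neighbors, and in siMk5 PA the first 5 genes, from Ccl2 (23.2 ± 5.42) over Ccl7, Cxcl10 and Cx3cl1 to Ccl5 (15.9 ± 3.23), overlapped each with the next. In siErk3 the sum was 42.8 ± 1.53 in BSA and 179.9 ± 12 in PA, and in siMk5 it was 45.5 ± 6.52 and 116 ± 18. All 3 siMk5 PA libraries were below all siNtc PA and siErk3 PA libraries in this sum. These orders and sums rest on the division by exon length, which is 8176 bases for Cxcl12 and 3930 for Cx3cl1. In CPM without that division, Cxcl12 (102 ± 5.18) stood above Cx3cl1 (71.2 ± 3.39) in siNtc BSA. In siNtc PA, Cx3cl1 (94.2 ± 0.509 CPM) then stood above Cxcl10 (85.6 ± 7.58 CPM).

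**Figure D2:**
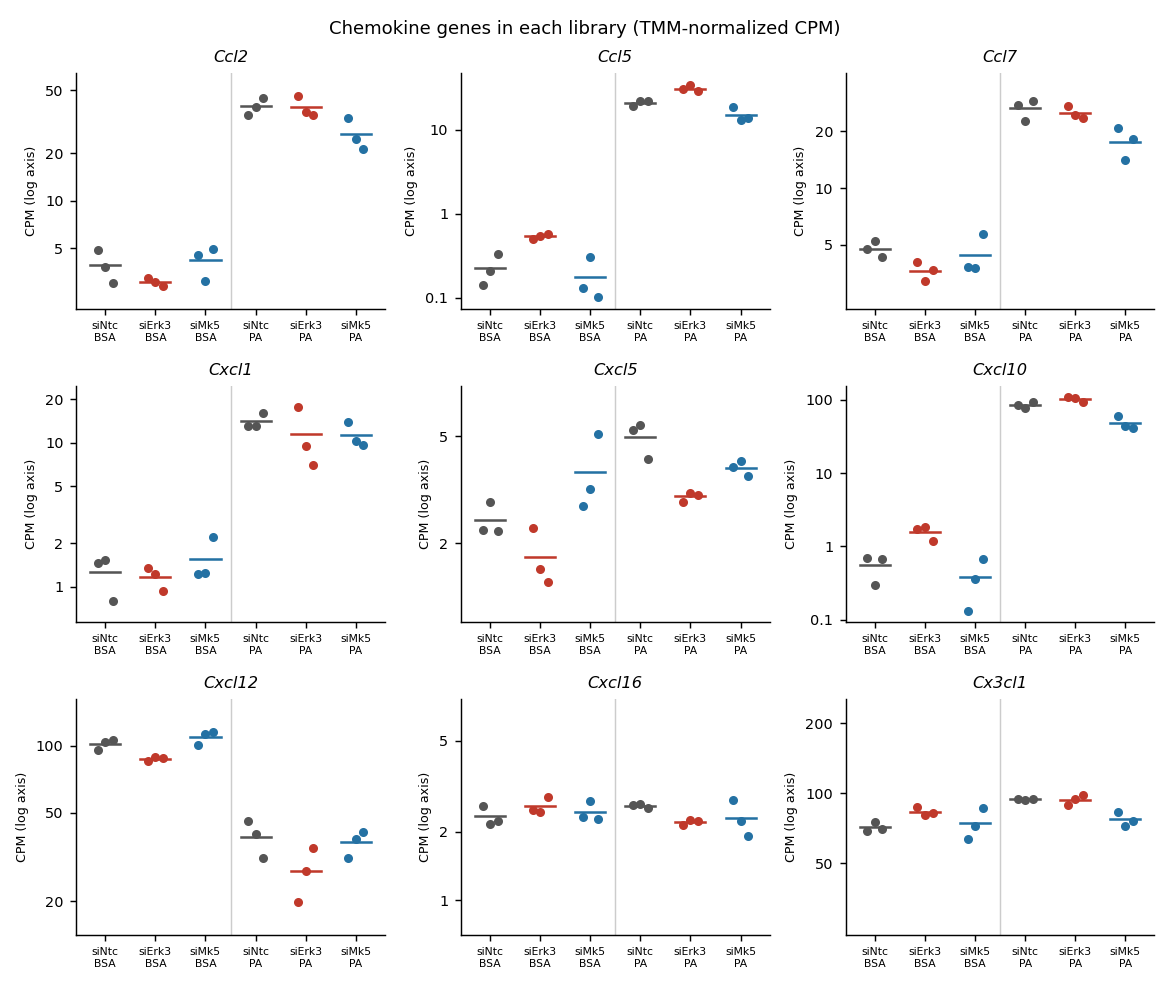
TMM-normalized CPM of the 9 chemokine genes with enough counts, on log axes of their own, in each of the 18 libraries. Points are libraries in order of their number, short lines are the means of 3, and the gray line divides BSA from PA groups. Ccl2, Ccl5, Ccl7, Cxcl1 and Cxcl10 lie higher in every PA library than in any BSA library, Cxcl12 lies lower, and Cxcl16 stays between 1.91 and 2.83 CPM.

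The total count per library was 13041979 to 28496727 read pairs, the shallowest being siNtc BSA library 1, and no 2 libraries of a group agreed within sampling noise. The silenced genes were looked at first, as a check of the labels. Mapk6 was at 132 ± 3.17 CPM in siNtc and 57.4 ± 2.64 CPM in siErk3 in BSA (SD, n = 3), and at 232 ± 14.7 CPM and 119.8 ± 11.3 CPM in PA, with edgeR log2 fold changes of -1.20 (FDR = 1.76e-14) and -0.95 (FDR = 1.2e-12). Mapkapk5 was sparse, at 2.46 ± 0.126 CPM in siNtc and 1.63 ± 0.422 CPM in siMk5 in BSA, and at 3.24 ± 0.702 CPM and 2.31 ± 0.131 CPM in PA. All siMk5 libraries were below all siNtc libraries in each medium, but the log2 fold changes of -0.61 and -0.49 did not pass edgeR's adjusted test (FDR = 0.47 and 0.468). The study likewise reported a fall of Mk5 mRNA short of its FDR threshold. For the protein, it reported that Western blots showed both kinases to be silenced.

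PA raised 7 of the 9 tested chemokine genes in siNtc and lowered 1. Throughout, a gene is called changed when edgeR's quasi-likelihood test gives an FDR below 0.05 over all genes tested and the fold change is above 1.3. Of the 21772 genes tested, 15.5% were called higher and 15.1% lower in PA than in BSA with siNtc, 15.8% and 16.3% with siErk3, and 15.1% and 14.6% with siMk5. The chemokine genes gave 7 higher and 1 lower, 6 higher and 1 lower, and 5 higher and 1 lower, in that order. Their median log2 fold change was 2.46, 2.78 and 2.01, beside -0.03, -0.01 and -0.01 over all genes tested. PA and BSA libraries did not overlap for 8, 9 and 6 of the 9 genes with siNtc, siErk3 and siMk5, against 51.3%, 53.9% and 51.9% of all genes tested. A gene's 3 PA libraries against its 3 BSA libraries cannot give less than p = 0.1 in a two-sided exact permutation test, so single genes rest on the fit over all genes.

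Cxcl10 gave the largest response of the 9 genes with each siRNA. Its CPM in BSA was 0.702, 0.292 and 0.662 in the siNtc libraries, 1.73, 1.81 and 1.18 in siErk3 and 0.131, 0.352 and 0.671 in siMk5. PA brought it to 86.3, 77.8 and 92.9 in siNtc, 110.1, 107 and 93.9 in siErk3 and 59.8, 44.1 and 41.8 in siMk5. Cxcl10 thus went from one of the least to one of the most abundant chemokine transcripts of these cells. The log2 fold change was 7.34 in siNtc (standard error 0.20, edgeR FDR = 1.44e-23), 6.06 in siErk3 and 7.02 in siMk5. Since the BSA libraries held few read pairs (10, 7 and 14 in siNtc), the ratio of depth-scaled counts was 164 (95% exact counting interval 115 to 241).

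Ccl5, which shares with Cxcl10 an NF-kappaB match close to the start, was nearly silent in BSA. Read pairs numbered 2, 5 and 7 in siNtc, 12, 13 and 16 in siErk3 and 3, 6 and 2 in siMk5 libraries. In PA they numbered 428, 487 and 438, 696, 935 and 584, and 418, 281 and 268, which is 21.2 ± 1.68 CPM, 31.1 ± 2.49 CPM and 15.2 ± 3.1 CPM (SD, n = 3). No PA library came near a BSA library. The log2 fold change was 6.46 in siNtc (standard error 0.22, edgeR FDR = 4.88e-21), 5.83 in siErk3 and 6.39 in siMk5, and the count ratio in siNtc was 89.7 (95% exact counting interval 53.3 to 165). Counting intervals cover counting error only.

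The monocyte attractants Ccl2 and Ccl7 rose together from a level that BSA cells already had. Ccl2 was at 4.85, 3.83 and 3.03 CPM in siNtc, 3.25, 3.08 and 2.9 in siErk3 and 4.53, 3.12 and 4.95 in siMk5 libraries with BSA. With PA it was at 35.1, 39.3 and 45, 45.9, 36.8 and 35.1, and 33.3, 24.7 and 21.4. PA and BSA libraries were far apart with each siRNA, and the siMk5 PA libraries were below the other PA libraries. The log2 fold change was 3.38 in siNtc (standard error 0.16, edgeR FDR = 2.76e-17), 3.68 in siErk3 and 2.66 in siMk5. Ccl7 went from 4.78, 5.25 and 4.3 CPM to 27.6, 22.8 and 29.1 in siNtc, from 4.06, 3.2 and 3.68 to 27.1, 24.5 and 23.6 in siErk3, and from 3.79, 3.77 and 5.73 to 20.7, 14.2 and 18.1 in siMk5. Again no PA library overlapped with a BSA library. Its log2 fold change was 2.46 in siNtc (standard error 0.14, edgeR FDR = 1.08e-15), 2.78 in siErk3 and 2.01 in siMk5.

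Of the neutrophil attractants, Cxcl1 rose with each siRNA, Cxcl5 rose less and was called in siNtc and siErk3 only, and Cxcl2 was at 1 read pair in all. Cxcl1 went from 1.48, 1.54 and 0.804 to 13, 13 and 16.1 CPM in siNtc, from 1.35, 1.22 and 0.93 to 17.6, 9.52 and 7.05 in siErk3, and from 1.22, 1.26 and 2.22 to 13.9, 10.2 and 9.65 in siMk5. The media did not overlap, but the siErk3 PA libraries differed from each other more than those of any other PA group. The log2 fold change of Cxcl1 was 3.46 in siNtc (standard error 0.29, edgeR FDR = 1.04e-11), 3.30 in siErk3 and 2.86 in siMk5. Cxcl5, whose NF-kappaB match reads as that of Cxcl1, went from 2.25, 2.83 and 2.22 to 5.26, 5.47 and 4.09 CPM in siNtc and from 2.28, 1.6 and 1.43 to 2.85, 3.08 and 3.03 in siErk3. In siMk5 it was at 2.75, 3.17 and 5.11 in BSA and 3.82, 4.05 and 3.56 in PA, which overlapped. Its log2 fold change was 1.01 in siNtc (edgeR FDR = 4.33e-05), 0.76 in siErk3 (FDR = 0.0025) and 0.07 in siMk5 (standard error 0.18, FDR = 0.804). The Cxcl2 read pair came from siMk5 PA library 3, and 0 counts in the other 17 libraries allow up to 3 counts in each.

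Cxcl12 was the 1 gene called lower with PA. It was at 96.2, 104 and 106 CPM in siNtc, 85.6, 89.4 and 87.9 in siErk3 and 101, 113 and 116 in siMk5 libraries with BSA. With PA it was at 45.8, 40.2 and 31.3, 19.9, 27.5 and 34.7, and 31.3, 38.2 and 41. Each PA library was below each BSA library, and the PA libraries were the more widely spread. The log2 fold change was -1.38 in siNtc (standard error 0.11, edgeR FDR = 9.92e-12), -1.69 in siErk3 and -1.58 in siMk5. In the same libraries the summed level of 6 fibroblast markers, among them the collagens Col1a1 and Col3a1, was 8546 to 10829 CPM in BSA and 2598 to 4646 in PA, and that of 6 markers of myoblasts and cycling cells was 893 to 961 and 372 to 489.8. Of these, 4 of 6 and 5 of 6 genes were called lower in siNtc, where 15.1% of all genes tested were called lower. Lum and Thy1 were sparse, and the part of these markers in the fall of Cxcl12 was not tested. In a bulk sample, fewer cells of a kind and less RNA per cell cannot be told apart.

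Of the membrane-bound chemokines, Cx3cl1 rose in siNtc by a small amount and Cxcl16 was not called with any siRNA. Cx3cl1 was at 68.7, 75.1 and 69.9 CPM in siNtc BSA and 94.7, 93.7 and 94.4 in siNtc PA. These did not overlap, and the log2 fold change was 0.40 (standard error 0.07, edgeR FDR = 1.72e-05). The gene lies near the fold limit, since without siNtc BSA library 1 the value was 0.37, which is no longer called, and edgeR's filterByExpr gave 0.38 with the same outcome. In siErk3 it was at 86.9, 80.4 and 82 in BSA and 88.6, 94.1 and 98.4 in PA (log2 fold change 0.17, FDR = 0.0391), under the fold limit, and in siMk5 at 63.6, 72 and 86.6 and 82.6, 72.4 and 76.1 (0.06, FDR = 0.542). Cxcl16 was at 2.6, 2.17 and 2.22 CPM in siNtc BSA and 2.61, 2.65 and 2.53 in siNtc PA, which overlapped. In siErk3 it was at 2.49, 2.45 and 2.83 in BSA and 2.15, 2.24 and 2.23 in PA, lower without overlap, and in siMk5 the media overlapped. Its log2 fold changes of 0.17, -0.23 and -0.07 (standard error 0.16 in siNtc) in siNtc, siErk3 and siMk5 did not pass the test.

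**Figure D3:**
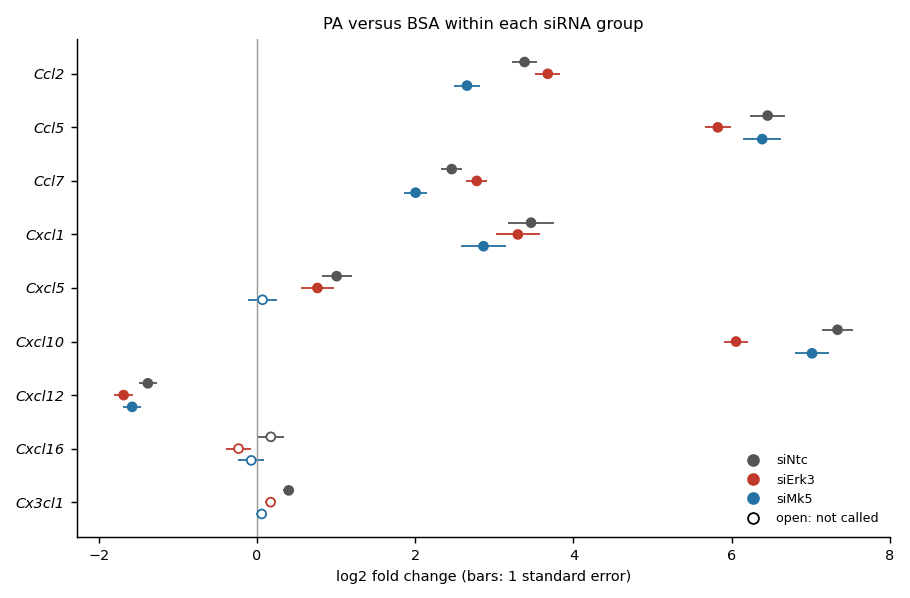
Log2 fold change of PA versus BSA from the edgeR fit for 9 chemokine genes, with one color per siRNA group and bars of 1 standard error. Filled points are called changed and open points are not. Cxcl10 and Ccl5 lie between 5.83 and 7.34, Cxcl12 lies between -1.69 and -1.38, and Cxcl5 and Cx3cl1 are near 0 in siMk5.

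The plot of PA effects sets the 3 siRNA groups side by side. The groups hold different libraries in both media, so these 3 comparisons share no sample, and whether their effects differ is tested by the interactions given further on.

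In BSA, no chemokine gene was called changed by siErk3, while 0.588% of all genes tested were called higher and 0.198% lower. By edgeR, 6 of the 9 genes had an unadjusted p below 0.05 and 0 were called, and DESeq2 called 1. That gene is Cxcl10, at 1.73, 1.81 and 1.18 CPM in siErk3 against 0.702, 0.292 and 0.662 in siNtc, a count ratio of 2.97 (95% exact counting interval 1.99 to 4.57). All 3 siErk3 libraries were above all siNtc libraries, and the edgeR value of 1.56 (standard error 0.41, FDR = 0.051) on the log2 scale fell just short of the threshold. DESeq2 gave FDR = 0.000633, and without siErk3 BSA library 3 edgeR gave FDR = 0.0402. Ccl5, with 12, 13 and 16 read pairs in siErk3 against 2, 5 and 7 in siNtc, had an edgeR value of 1.19 (standard error 0.48, FDR = 0.335) on the log2 scale and also did not overlap. Ccl7 and Cxcl12, both lower (-0.39 and -0.22), and Cx3cl1, higher (0.22), did not overlap either, which makes 5 of 9 genes, against 17.4% of all genes tested. The edgeR values of the other 7 genes were between -0.49 (Cxcl5) and 0.22 (Cx3cl1), and the median of the 9 was -0.13 beside 0.02 over all genes.

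In PA, siErk3 raised Ccl5 and lowered Cxcl5 and Cxcl12, which is 1 higher and 2 lower of 9 genes, where 0.432% and 0.124% of all genes tested were called. Ccl5 was at 19.3, 22.2 and 22.1 CPM in siNtc PA and at 30.5, 33.8 and 29 in siErk3 PA. The groups did not overlap, and the edgeR log2 fold change was 0.56 (standard error 0.09, FDR = 0.000605). This call held without any one library, with values from 0.49 to 0.61. Cxcl5 was at 5.26, 5.47 and 4.09 in siNtc PA and 2.85, 3.08 and 3.03 in siErk3 PA, with no overlap and an edgeR value of -0.73 (standard error 0.18, FDR = 0.0348) on the log2 scale. Its call was lost without siNtc PA library 1 or 2 (FDR = 0.171 and 0.251) and without siErk3 PA library 1, 2 or 3 (FDR = 0.0807, 0.129 and 0.0511). Cxcl12 was at 19.9, 27.5 and 34.7 in siErk3 PA against 45.8, 40.2 and 31.3 in siNtc PA, which overlapped, and edgeR gave -0.53 (standard error 0.12, FDR = 0.0271). DESeq2 did not call it (FDR = 0.137), nor did edgeR with filterByExpr (FDR = 0.058), with only the compared groups (FDR = 0.311), without siNtc PA library 1 or 2 (FDR = 0.289 and 0.157) or siErk3 PA library 1 or 2 (FDR = 0.145 and 0.121).

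Cxcl10 in PA was 110.1, 107 and 93.9 CPM with siErk3 and 86.3, 77.8 and 92.9 with siNtc. The siErk3 libraries were the higher ones, the lowest of them just above the highest siNtc library, and edgeR gave 0.28 (standard error 0.09, FDR = 0.225) on the log2 scale. Ccl2, Ccl7 and Cx3cl1 differed by -0.02, -0.08 and -0.01 on the log2 scale, with standard errors of 0.11, 0.10 and 0.07. Cxcl1 gave -0.29 (standard error 0.19, FDR = 0.733), and -0.74 (FDR = 0.00421) when siErk3 PA library 1, the highest of its group, was left out. Cxcl16 was lower in each siErk3 library and gave -0.23 (standard error 0.16, FDR = 0.77). With Ccl5, Cxcl5 and Cxcl10 this makes 4 of 9 genes without overlap, against 12.1% of all genes tested. The median of the 9 genes was -0.08, beside -0.00 over all genes.

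With siMk5 in BSA no chemokine gene was called by edgeR or by DESeq2, and 1 of 9 had an unadjusted p below 0.05 with each tool. Of all genes tested, 0.0138% were called higher and 0.0505% lower. The log2 fold changes ran from -0.49 for Cxcl10 (standard error 0.59) to 0.56 for Cxcl5 (standard error 0.20). Between them lay Ccl5 (-0.40), Ccl7 (-0.12), Cx3cl1 (0.05), Cxcl16 (0.08), Cxcl12 (0.10), Ccl2 (0.15) and Cxcl1 (0.29). The siMk5 BSA and siNtc BSA libraries overlapped for each of the 9 genes, and 12.3% of all genes tested did not overlap. The siMk5 BSA libraries also had the largest share of counts on 18S ribosomal RNA, 8.39% to 12.9%, against 2.56% to 7.17% in siNtc BSA, and its part in these values was not tested.

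With PA, siMk5 lowered Cxcl10, Ccl2, Ccl7 and Ccl5, 4 of the 9 genes, and raised none, where 0.491% of all genes tested were called lower and 0.0551% higher. Cxcl10 was at 59.8, 44.1 and 41.8 CPM in siMk5 PA against 86.3, 77.8 and 92.9 in siNtc PA. All siMk5 libraries were lower, and the edgeR log2 fold change was -0.81 (standard error 0.10, FDR = 1.87e-06), which stayed called without any one library, from -0.99 to -0.72. Ccl7 was at 20.7, 14.2 and 18.1 against 27.6, 22.8 and 29.1, again without overlap, with -0.58 (standard error 0.11, FDR = 0.00231) by edgeR, and FDR = 0.0692 without siMk5 PA library 2. Ccl2 was at 33.3, 24.7 and 21.4 against 35.1, 39.3 and 45. Its siMk5 libraries were all lower, and edgeR gave -0.58 (standard error 0.12, FDR = 0.00621), but DESeq2 gave FDR = 0.199 and edgeR gave FDR = 0.0691 without siNtc PA library 3, 0.0823 without siMk5 PA library 2 and 0.105 without siMk5 PA library 3. Ccl5 was at 18.8, 13.1 and 13.8 against 19.3, 22.2 and 22.1, all lower, with -0.47 (standard error 0.10, FDR = 0.0105) by edgeR. That call was lost without siNtc PA library 2 or 3 (FDR = 0.097 and 0.061) and without siMk5 PA library 2 or 3 (FDR = 0.205 and 0.118).

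Cx3cl1 was at 82.6, 72.4 and 76.1 CPM in siMk5 PA against 94.7, 93.7 and 94.4 in siNtc PA, lower in each library, but its edgeR value of -0.29 (standard error 0.07, FDR = 0.035) on the log2 scale was under the fold limit. Cxcl5 also did not overlap, with -0.38 (standard error 0.17, FDR = 0.699). Cxcl1, Cxcl12 and Cxcl16 overlapped and gave -0.31, -0.10 and -0.17. The 6 genes without overlap, all lower, compare with 12% of all genes tested. The median of the 9 genes was -0.38, beside 0.00 over all genes. siErk3 and siMk5 were each set against the same siNtc libraries, so their values here are not independent of each other.

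**Figure D4:**
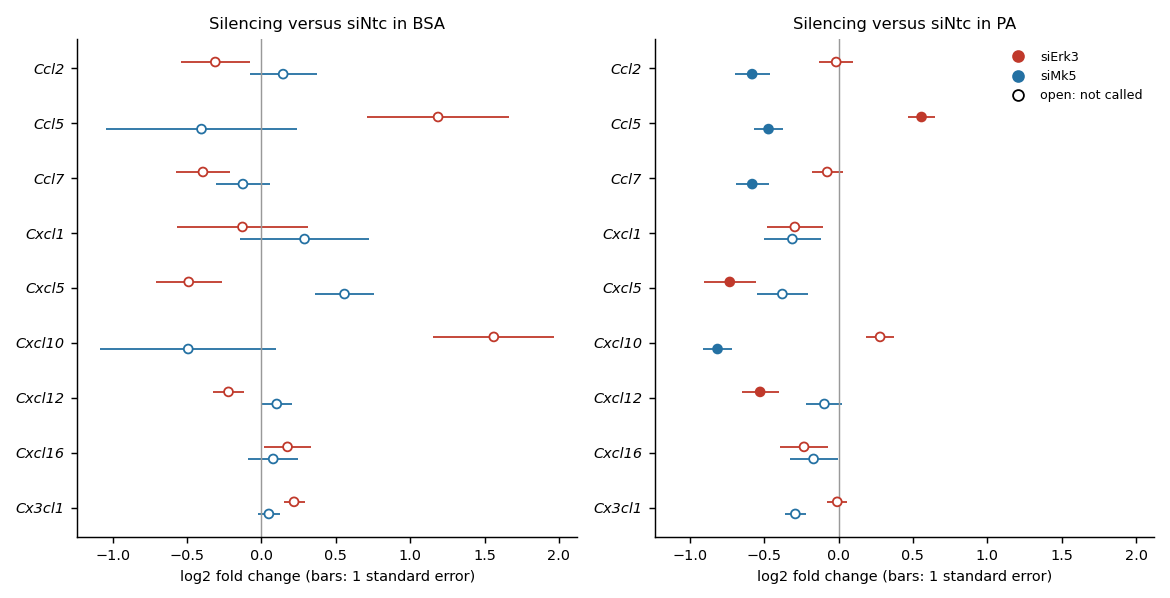
Log2 fold change of siErk3 and of siMk5 versus siNtc for 9 chemokine genes in BSA (left) and PA (right), with bars of 1 standard error. Filled points are called changed. In BSA all points are open and the bars of Ccl5, Cxcl10 and Cxcl1 are the widest, and in PA the filled points of siMk5 are Ccl2, Ccl5, Ccl7 and Cxcl10, all below 0.

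The plot of silencing effects shows Ccl5 on opposite sides of siNtc in PA. Set against each other directly, siErk3 PA had higher Cxcl10, Ccl5, Ccl2 and Ccl7 than siMk5 PA by edgeR. The log2 fold change was 1.09 (standard error 0.10, FDR = 1.06e-09) for Cxcl10, 1.03 (standard error 0.10, FDR = 4.47e-09) for Ccl5, 0.56 (standard error 0.12, FDR = 0.00468) for Ccl2 and 0.50 (standard error 0.11, FDR = 0.00731) for Ccl7. That is 4 genes higher and 0 lower of 9, where 0.854% and 0.175% of all genes tested were called. These 4 genes did not overlap between the groups, nor did Cx3cl1, higher with siErk3 by 0.28 (standard error 0.07, FDR = 0.0273) and under the fold limit, or Cxcl5, lower with a log2 value of -0.35 (standard error 0.18, FDR = 0.53). That is 6 of 9 genes without overlap, against 14.7% of all genes tested. Cxcl1 and Cxcl16 overlapped and gave 0.02 and -0.06. The calls of Cxcl10 and Ccl5 held without any one library, that of Ccl2 was lost without siMk5 PA library 2 or 3 (FDR = 0.054 and 0.0869) and by DESeq2 (FDR = 0.117), and that of Ccl7 without siMk5 PA library 2 (FDR = 0.136). Cxcl12, at -0.43 (standard error 0.12, FDR = 0.0872), became called with no filter on low counts and without siErk3 PA library 3 (-0.62) or siMk5 PA library 1 (-0.54).

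In BSA, where 0.482% and 0.106% of genes were called, Cxcl10 was higher and Cxcl5 lower in siErk3 than in siMk5, by 2.05 (standard error 0.44, FDR = 0.01) and -1.05 (standard error 0.20, FDR = 0.00417) on the log2 scale by edgeR. Ccl5 gave 1.59 (standard error 0.50, FDR = 0.201) and was called with no filter on low counts (FDR = 0.0277). Cxcl12 gave -0.32, Ccl2 -0.46, Cxcl1 -0.42, Ccl7 -0.27, Cxcl16 0.10 and Cx3cl1 0.17, none of them called. Cxcl10 and Ccl5 (higher) and Cxcl5 and Cxcl12 (lower) did not overlap, 4 of 9 genes against 15.3% of all genes tested. The call of Cxcl10 was lost without siMk5 BSA library 1 or 2 (FDR = 0.139 and 0.0719), and that of Cxcl5 without siErk3 BSA library 3 or siMk5 BSA library 3 (FDR = 0.0713 and 0.1).

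Whether the response to PA itself differed with silencing was tested as an interaction in the same edgeR fit, which called 0 of the 9 genes for siErk3 and 0 for siMk5. DESeq2 called 0 as well. Over all genes tested, 0.00919% and 0.0276% were called higher and lower for siErk3, and 0.0505% and 0.161% for siMk5. At an unadjusted p below 0.05 edgeR had 2 genes for siErk3 and 4 for siMk5, and DESeq2 had 1 and 4. The smallest p-value for siErk3 belonged to Cxcl10, whose response differed from that in siNtc by a log2 value of -1.28 (standard error 0.42, FDR = 0.54 by edgeR). For siMk5 the smallest p-values belonged to Cxcl5 (-0.94, standard error 0.26, FDR = 0.198), Cx3cl1 (-0.34, standard error 0.10, FDR = 0.25) and Ccl2 (-0.73, standard error 0.26, FDR = 0.443). With no filter on low counts edgeR called Cxcl10 for siErk3 (FDR = 0.0015) and Ccl2 and Cxcl5 for siMk5 (FDR = 0.00127 and 0.0112). Without siMk5 BSA library 1 the interaction of Cx3cl1 was called (-0.43, FDR = 0.0202). By the edgeR fit reported and by DESeq2, a difference in the response of these genes was thus not detectable after adjustment with 3 libraries a group. This outcome depended on the filter for low counts and on siMk5 BSA library 1, and it does not show that the responses were alike.

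How far the 3 libraries of a group lay apart was measured as the log2 ratio of the highest to the lowest. In siNtc PA the median over the 9 genes was 0.31, in siErk3 PA 0.22 and in siMk5 PA 0.52, beside 0.22, 0.27 and 0.21 over all genes detected in the 3 libraries. In BSA the medians were 0.35, 0.21 and 0.67 for siNtc, siErk3 and siMk5, beside 0.23, 0.18 and 0.22. The widest BSA spreads were those of the sparse genes Cxcl10 (2.36 in siMk5) and Ccl5 (1.55 in siMk5), counted from 3 to 43 and 2 to 16 read pairs in the 9 BSA libraries. With PA, where they were well counted, Cxcl10 spread over 0.26, 0.23 and 0.51 and Ccl5 over 0.21, 0.22 and 0.52 in siNtc, siErk3 and siMk5.

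Among the PA groups, Cxcl1 and Cxcl12 were the most widely spread genes in siErk3 PA. Cxcl1 spread over 1.32 there, from library 1 as the highest to library 3 as the lowest, and Cxcl12 over 0.81, with library 1 the lowest and library 3 the highest. In siNtc PA these genes spread over 0.31 and 0.55, and in siMk5 PA over 0.53 and 0.39. Cx3cl1 was the steadiest gene in siNtc PA, at 0.02. In siMk5 PA, library 1 was the highest of its group for 7 of the 9 genes, and in siMk5 BSA library 3 was the highest for 7. The share of all genes highest in these libraries was not determined. In each PA group, the library highest for Ccl2, Ccl7, Cxcl1 and Cxcl10 was the lowest for Cxcl12. That was library 3 in siNtc PA and library 1 in siErk3 PA and siMk5 PA. Ccl5, Cxcl5, Cxcl16 and Cx3cl1 were highest in other libraries in siNtc PA and siErk3 PA. With 3 libraries a group the spread of a gene was not tested.

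**Figure D5:**
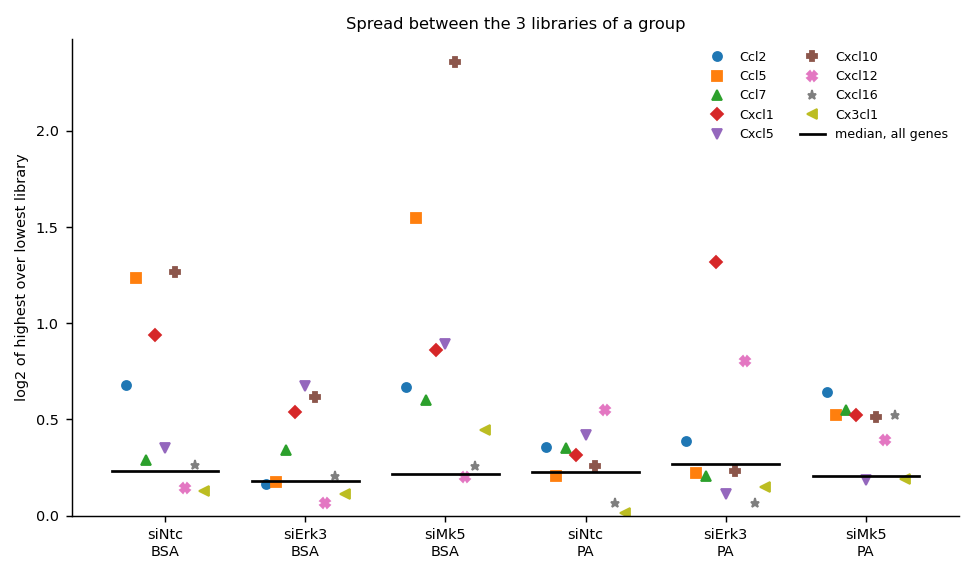
Log2 ratio of the highest to the lowest library within each group of 3, with one symbol per chemokine gene and a black line for the median over all genes detected in the group. Cxcl10 and Ccl5 stand highest in siNtc BSA and siMk5 BSA, and Cxcl1 and Cxcl12 stand highest in siErk3 PA.

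The plot of spreads shows that the sparse genes Cxcl10 and Ccl5 had the widest spread in siNtc BSA and siMk5 BSA. In siErk3 BSA the widest gene was Cxcl5 (0.67), and Ccl5 spread over 0.18.

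Among 28 other chemokine ligand genes, 14 had enough counts to be tested, and with PA in siNtc 5 were called higher and 2 lower, where 15.5% and 15.1% of all genes tested were called (median log2 fold change 0.73, beside -0.03 over all genes). Cxcl9, like Cxcl10 a ligand of Cxcr3, rose from 0.828 ± 0.297 CPM to 7.23 ± 0.767 CPM in siNtc (SD, n = 3). It was at 9.52 ± 0.925 CPM in siErk3 PA and 3.31 ± 0.56 CPM in siMk5 PA, the latter called lower than siNtc PA (log2 fold change -1.12, edgeR FDR = 9.28e-06). Ccl4, another CC ligand, had 0 to 1 read pairs in the BSA libraries and 58 to 161 in the PA libraries. Cxcl11, another ligand of Cxcr3, had 0 and 2 to 14. Cxcl14, another CXC ligand, fell from 48.6 ± 3.99 CPM to 25.9 ± 4.15 CPM in siNtc, and it was lower with siErk3 than with siNtc in BSA (34.4 ± 1.97 CPM, log2 fold change -0.50, edgeR FDR = 0.0389) and in PA (14.1 ± 4.86 CPM, log2 fold change -0.89, edgeR FDR = 0.000582).

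Several receptors of these ligands were at or near 0 in the myotubes themselves. Ccr2 had 0 to 1 read pairs in BSA and 0 to 1 in PA libraries, Cxcr2 0 and 0 to 2, Cxcr3 0 to 1 and 0 to 1, and Cx3cr1 1 to 5 and 0 to 8. The Cxcl12 receptors were expressed, Cxcr4 at 25.2 ± 0.897 CPM in siNtc BSA and 19.1 ± 2.39 CPM in siNtc PA (log2 fold change -0.39, edgeR FDR = 0.000648), and Ackr3 at 6.61 ± 0.17 CPM and 7.63 ± 0.795 CPM (0.21, FDR = 0.122). Cxcr6, the receptor of Cxcl16, was lower with siErk3 than with siNtc in BSA (2.67 ± 0.421 CPM against 5.28 ± 0.0737 CPM, log2 fold change -0.97, edgeR FDR = 0.000293) and in PA (3.94 ± 0.686 CPM against 7.11 ± 0.364 CPM, -0.85, FDR = 0.000429). Ackr4, a scavenger of CC chemokines, fell with PA in siNtc (-1.88, edgeR FDR = 2.18e-09). Called higher with PA in siNtc were Ccrl2 (2.57, edgeR FDR = 3.62e-08), Cxcr6 (0.43, FDR = 0.0103) and Ccr1 (4.14, FDR = 0.00421). Ccr1 was sparse, with 0 to 6 read pairs in BSA and 1 to 13 in PA libraries. Of 23 receptor genes, 12 were tested, and 3 were called higher and 2 lower with PA in siNtc (median 0.49), where 15.5% and 15.1% of all genes tested were called, so these shares lie near the background.

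The genes of both signalling routes whose motifs were searched were counted in the same way. With PA in siNtc, siErk3 and siMk5, 15.5%, 15.8% and 15.1% of all genes tested were called higher and 15.1%, 16.3% and 14.6% lower. Of 26 NF-kappaB subunits, inhibitors and targets, 16 were called higher and 0 lower with PA in siNtc (median 0.64), 15 in siErk3 and 12 in siMk5, among them Ptgs2, an inducible prostaglandin synthase (5.65 in siNtc, edgeR FDR = 4.87e-22), the cytokine Il6 (3.35, FDR = 2.82e-14) and the subunit Relb (0.89, FDR = 3.33e-12). Their median with siErk3 was -0.00 in BSA and -0.00 in PA, and with siMk5 0.05 and -0.05, where the 1 gene called was the cytokine Il1b, higher with siMk5 in PA (0.74, FDR = 0.00134). Of 23 tested interferon-stimulated genes and interferon signalling factors, 21 were called higher with PA in siNtc (median 3.94), for example Ifit1 (6.72, edgeR FDR = 1.46e-22) and Stat2 (2.32, FDR = 6.21e-22). With siErk3, 18 were higher than with siNtc in BSA (median 1.12) and 8 in PA (median 0.31), and with siMk5 21 were lower in PA (median -0.88), while the median in BSA was -0.06. The medians over all genes in these 4 comparisons were between -0.00 and 0.02. Called higher with siErk3 were 0.588% of all genes tested in BSA and 0.432% in PA. With siMk5 in PA, 0.491% were called lower and 0.0551% higher. The list of interferon genes was written with these results known, and that of NF-kappaB genes with earlier results of these data known. Neither list stands as independent support.

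Markers were read to see which cells the libraries held. The 10 genes of differentiated muscle summed to 12799.8 to 16071 CPM in BSA and 11731 to 13789 in PA, and each of them had at least 2169 read pairs in every library. Of 8 leukocyte markers, Adgre1 and Tyrobp were at 0 in all 18 libraries, Ptprc had 0 to 1 read pairs in BSA and 0 to 1 in PA libraries, and the list summed to 7.25 to 9.08 CPM in BSA and 7.75 to 9.45 in PA, most of it Cd14. Of 5 endothelial markers Emcn was at 0, and the list summed to 0.333 to 1.18 CPM in BSA and 0.72 to 1.39 in PA. The 6 markers of myoblasts and cycling cells summed to 893 to 961 CPM in BSA and 372 to 489.8 CPM in PA. Those of fibroblasts summed to 8546 to 10829 CPM and 2598 to 4646 CPM, most of it the collagen genes Col3a1 (mean 5424 CPM) and Col1a1 (1056 CPM). Thy1 had 0 to 4 and Lum 3 to 18 read pairs per library. With PA in siNtc 5 of the 10 muscle genes were called lower and none higher, where 15.1% and 15.5% of all genes tested were called. With siErk3, 3 muscle genes were called higher in BSA and 2 in PA, against 0.588% and 0.432% of all genes tested. The part of these markers in the chemokine differences was not tested.

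Over the 18 libraries, which fall into a BSA and a PA cluster, the genes whose log2 CPM followed each chemokine gene most closely were taken from 12734 genes with a mean of at least 1 CPM. For Cxcl10 these were Prkcsh (r = 0.994), Ifit1 (r = 0.993) and Ifi202b (r = 0.993), for Ccl5 Prkcsh (r = 0.996), Ascc3 (r = 0.996) and Oasl1 (r = 0.996), and for Ccl2 Slc11a2 (r = 0.992), Macir (r = 0.991) and Soat1 (r = 0.991), where r is Pearson's. Those of Ccl7 were Cd63 (r = 0.986), Elf1 (r = 0.986) and Ctsd (r = 0.984), and those of Cxcl1 were Rhbdf2 (r = 0.992), Ddx10 (r = 0.991) and Morc2a (r = 0.99). Cxcl12 was followed by Cdon (r = 0.997), Atoh8 (r = 0.996) and Mxra8 (r = 0.995). Less close were the genes most like Cx3cl1, which were Plekha4 (r = 0.917), Gbp9 (r = 0.906) and Ube2l6 (r = 0.897), Cxcl5, which were Serpine2 (r = 0.865), Mapk6 (r = 0.822) and 1110004F10Rik (r = 0.818), and Cxcl16, which were Nod1 (r = 0.773), Rmdn2 (r = 0.694) and Tmem50b (r = 0.659). All these values share the difference between media and are a description.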

How the data were processed

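RNA was taken from 18 libraries of C2C12 myotubes in 6 groups of 3, and poly(A)-selected, stranded libraries were sequenced in pairs. The deposited count table gives, for each gene, the read pairs counted per library, and these counts were not normalized. Per the file headers and the methods, the authors aligned reads with STAR to GRCm39 and counted them with featureCounts (version 2.0.0), the Ensembl 105 annotation, strand setting 2 and a minimum mapping quality of 3, while the labels name mm10. Duplicates were kept. A deposited table of log2 FPKM values of the same libraries was not used here. No column belonged to another sample.

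Symbols and positions were taken from GENCODE M39. Genes with at least 10 counts in total (21772 of 55414) were fitted with edgeR (version 4.0.16, R 4.3.3) by its quasi-likelihood test on TMM-normalized counts, all 18 libraries in one fit with a coefficient per group. Benjamini-Hochberg adjustment over all genes tested gave the FDR, and a gene was called at an FDR below 0.05 and a fold change above 1.3. CPM values use the same TMM factors, and levels between genes were compared per kilobase of the union of exons. The alternatives were DESeq2 (version 1.42.0), its size factors in edgeR, filterByExpr or no filter, a replicate block, calls by FDR only, fits of the compared groups only, and leaving out each library. On simulated counts for siErk3 versus siNtc in PA, with 200 of 21772 genes changed by a log2 value of 1, the fit called 96.5% of them and 6 unchanged genes. The changed genes had a mean of at least 1 CPM, so this share does not cover sparser genes or smaller changes.

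All 10 chemokine genes belong to the named genes in each comparison, and Cxcl2, which could not be tested, is given by its counts. From the lists of other ligands, receptors, processing enzymes, NF-kappaB genes, upstream receptors and interferon genes, names were limited to the 6 called genes with the smallest adjusted p in a comparison and, for ligands and receptors, the 5 of highest mean CPM, and the 3 genes most like each chemokine gene were taken over the 18 libraries (log2 of CPM plus 0.5). The receptors Ccr2, Cxcr2, Cxcr3 and Cx3cr1 were named in addition, as receptors of ligands studied, after their values had been seen. Members, lists and motifs were chosen with earlier results of these data known.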

Additional observations from a re-analysis of the deposited data

How the results depend on the processing

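Of the single-gene log2 fold changes under alternatives that kept all libraries, 675 kept their direction and their side of the threshold, 12 became called, 6 were no longer called and none changed sign. With 1 library left out, 643 kept both, 5 became called, 25 were no longer called and 29 changed sign. Calls by FDR only, among the alternatives that kept all libraries, reuse the reported log2 fold changes. They could therefore not change sign or lose a call. Of the chemokine genes, 1 was called for siErk3 versus siNtc in BSA (Cxcl10) by DESeq2, with no filter, with the replicate block and with only the compared groups, against 0 by the edgeR fit reported, and the same count without siErk3 BSA library 3. With no filter, 1 was called for the interaction of siErk3 with PA and 2 for that of siMk5.

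Over all genes, the FDR alone gave 263 calls for siErk3 in BSA (171 reported) and 186 for siErk3 in PA (121 reported), and no filter gave 208 for siErk3 in PA, 61 for siMk5 in BSA (14 reported), 201 for siErk3 versus siMk5 in BSA (128 reported), 72 for the interaction of siErk3 (8 reported) and 130 for that of siMk5 (46 reported). With only the compared groups siMk5 in BSA gave 34, and the interaction of siErk3 gave 4 with DESeq2 size factors and 0 with filterByExpr. The cause of these shifts was not tested.

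Leaving out 1 library in turn, the chemokine genes called numbered 0 to 1 for siErk3 in BSA, 1 to 3 for siErk3 in PA, 1 to 4 for siMk5 in PA, 1 to 2 and 2 to 5 for siErk3 versus siMk5 in BSA and PA, and 0 to 1 for the interaction of siMk5. All genes called numbered 111 to 146 for siErk3 in BSA, 6 to 31 for siMk5 in BSA, 0 to 24 for the interaction of siErk3 and 24 to 67 for that of siMk5. The library behind the lowest count was siNtc BSA library 2 for siErk3 in BSA and for siMk5 in BSA, and siMk5 BSA library 3 for the interaction of siMk5, and the highest counts for siMk5 in BSA and the interaction of siErk3 came without siMk5 BSA library 1 and siErk3 PA library 3. The interaction of siErk3 moved by over 1.5 times without any library but siErk3 PA library 1. The log2 fold changes that changed sign ran, for siErk3 versus siNtc in PA, from -0.14 to 0.079 for Ccl2 and -0.036 to 0.029 for Cx3cl1, and in BSA from -0.39 to 0.10 for Cxcl1. For siMk5 versus siNtc in BSA they ran from -0.0078 to 0.31 for Ccl2, -0.081 to 0.15 for Cx3cl1, -0.034 to 0.52 for Cxcl1 and -0.012 to 0.15 for Cxcl16, and in PA from -0.23 to 0.034 for Cxcl12. For siErk3 versus siMk5 in PA they ran from -0.43 to 0.25 for Cxcl1 and -0.17 to 0.087 for Cxcl16, and for PA versus BSA in siMk5 from -0.053 to 0.17 for Cx3cl1, -0.22 to 0.037 for Cxcl16 and -0.13 to 0.36 for Cxcl5. Interactions that changed sign were those of siMk5 for Ccl5 (-0.42 to 0.50) and Cxcl10 (-0.77 to 0.34) and that of siErk3 for Cxcl1 (-0.61 to 0.095).

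Groups share library numbers, but same-numbered libraries deviated together by correlations of -0.61 to 0.52, 7 of 18 libraries were closest to one of their own number, and a pairing is not stated. The extremes lay within PA. Libraries 1 and 3 of siErk3 PA and siMk5 PA deviated alike (0.52 and 0.44), and those of siNtc PA went the opposite way (-0.61 to -0.41). Library 2 of these groups gave 0.003 to 0.046. With the replicate block, Cxcl10 was called for siErk3 versus siNtc in BSA (FDR = 0.0306). DESeq2 size factors moved the median of all genes by at most 0.015. With Cxcl10 at 7 to 14 read pairs in siNtc BSA, and Ccl5 at 2 to 7, BSA values of these genes are limited by depth.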

Other observations

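Further upstream, receptors and adaptors that are known to sense lipids, microbial products or cytokines moved with PA in both directions. Of 19 tested genes 9 were called higher and 2 lower in siNtc by edgeR, where 15.5% and 15.1% of all genes tested were called. Their median log2 fold change was 0.38, beside -0.03 over all genes. Tlr4, the receptor of bacterial lipopolysaccharide, rose by a log2 value of 0.93 (FDR = 6.83e-14), and its adaptors Myd88 and Ticam1 rose by 1.28 (FDR = 6.08e-15) and 0.80 (FDR = 1.31e-10). The interleukin-1 receptor Il1r1 changed by -0.85 (FDR = 8.51e-13). Tlr3, which senses double-stranded RNA, was lower with siMk5 than with siNtc in PA (-0.89, FDR = 8.9e-05).

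Genes that act on chemokines outside or at the surface of the cell gave 3 higher and 3 lower of 11 tested with PA in siNtc. Of all genes tested, 15.5% and 15.1% were called, and the median was 0.09 beside -0.03 over all genes. Rhbdf2, a partner of the sheddase Adam17, rose by 1.33 (edgeR FDR = 3.98e-11), and Ndst1, an enzyme of heparan sulfate synthesis, rose by 0.70 (FDR = 8.22e-13). The metalloproteases Mmp14 and Mmp2, which are known to clip chemokines, changed by -0.55 (FDR = 4.05e-08) and -0.55 (FDR = 5.05e-06), and the proteoglycans Sdc4 and Sdc1 by 0.45 (FDR = 3.6e-07) and -0.40 (FDR = 4.33e-07). The median over the 11 genes was -0.11 with siErk3 and -0.10 with siMk5 in PA.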
